A study of Homo sapiens with 16 samples.

Results

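Nucleotide synthesis in MDA-MB-231, an established human cell line of triple-negative breast cancer, was followed through 35 genes that code for the enzymes of purine and pyrimidine synthesis. The genes were picked by enzyme function, by mapping Ensembl identifiers to gene symbols, a rule that uses no measured value, although the set was put together with earlier results of these data known. All 35 were found, 1 identifier each, among the 60719 gene identifiers of the count tables. RNA was sequenced from unedited cells (parental 231) and from cells in which TXNIP had been deleted with CRISPR/Cas9 (231:TKO), with 2 replicates each without siRNA. The remaining groups, of 3 replicates each, were taken 48 hours after transfection of an siRNA: 231:TKO cells with a non-targeting siRNA (231:TKO+siNT) or with an siRNA against Myc (231:TKO+siMyc), and parental 231 cells with the same siRNAs (parental 231+siNT and parental 231+siMyc). According to the study's methods the knockout clones came from single cells, so an effect of TXNIP loss and a property of the clone cannot be told apart.

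Cells make purine and pyrimidine nucleotides either de novo, from amino acids, carbon dioxide, folate-bound carbon units and the ribose donor PRPP, or by salvage, in which free bases and nucleosides are returned to nucleotides. The purine ring is built on PRPP to give IMP, from which separate branches lead to AMP and GMP, while the pyrimidine ring is made first and joined to PRPP afterwards to give UMP and then CTP. Ribonucleotide reductase and thymidylate synthase turn part of the pool into the deoxynucleotides needed for DNA replication. Many of these genes are known targets of Myc, a transcription factor that binds DNA as a dimer with Max, and this pathway is therefore a place where a Myc knockdown would be looked for.

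The 35 genes comprised 6 genes of IMP synthesis, 5 of the AMP and GMP branches, 2 of PRPP synthesis, 2 of base salvage, 5 of UMP and CTP synthesis, 6 nucleotide kinases, 6 genes of deoxynucleotide (dNTP) supply and 3 nucleoside kinases. By route, 16 belong to de novo synthesis and 5 to salvage. By product, 15 act on purines and 12 on pyrimidines, and the rest serve both.

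Total counts per library lay between 18953668 and 59799444. Levels are given as CPM, the counts of a gene as a share of its library's total (scaled to 1e6 and by TMM factors), computed separately for the 4 untreated and the 12 siRNA-treated libraries. A CPM is a share of a library, so a change in the total RNA of a cell, or in the share of cells in a phase of the cell cycle, cannot be told apart from a change per cell. TXNIP was at 289.6 and 290.4 CPM in parental 231, at 12.6 and 46.6 in 231:TKO, and between 6.56 and 10.2 in the siRNA-treated 231:TKO libraries. MYC lay between 122 and 144 CPM in 231:TKO+siNT and between 58.2 and 58.7 in 231:TKO+siMyc, and between 123 and 129.8 and between 63.3 and 66.9 in the same groups of parental 231. All 6 mesenchymal markers examined were above 1 CPM in every library, as were 6 of 10 luminal markers, among them KRT8, at between 237 and 1875 CPM, and KRT18, at between 196 and 697 CPM. The luminal markers ESR1, PGR and FOXA1 were below 1 CPM in every library, and CDH1 ranged from 0.272 to 9.30 CPM. Counting used single reads for the untreated libraries and read pairs for the siRNA-treated ones. Among the siRNA-treated libraries, 231:TKO and parental 231 were sequenced under separate requests and counted in different Ensembl releases, so these differences and the genotype cannot be told apart. Parental 231+siNT replicate 1 and parental 231+siMyc replicate 3 deviated from their groups together (r = 0.90 across 13449 genes). For comparisons that hold these libraries, the counts of genes that passed the test are given with and without them. Most other values of siRNA-treated parental 231 include them.

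Of the 35 genes, 34 were above 1 CPM in every library. In parental 231+siNT the levels per kilobase of exon ran from TK1, the cytosolic thymidine kinase, at 108 ± 12.3 CPM per kb (SD, n = 3) down to ADSS1, the adenylosuccinate synthase known from muscle, at 0.111 ± 0.00795. TYMS, thymidylate synthase, came next after TK1 at 85.3 ± 5.06 CPM per kb. GUK1, NME2, DTYMK, CMPK1, RRM1, PAICS and IMPDH2 followed between 54.0 and 42.8 CPM per kb, and neighbours in that order differed by less than the larger of their SDs. At the low end, UMPS at 4.69 ± 0.312, CTPS2 at 4.03 ± 0.204 and ADSL at 3.80 ± 0.0973 CPM per kb stood above DHODH, the mitochondrial enzyme that oxidises dihydroorotate, at 1.15 ± 0.192. Within IMP synthesis the levels spanned from PAICS, at 43.2 ± 2.64, through ATIC at 23.5 ± 1.24 and GART at 20.4 ± 1.02, to PPAT at 7.04 ± 0.487, PFAS at 6.93 ± 1.31 and ADSL, so the enzyme of the first committed step was among the lower ones. PPAT and PFAS did not differ beyond their spread in parental 231+siNT, whereas in untreated parental 231 they were at 8.51 ± 0.183 and 17.1 ± 0.0456 (SD, n = 2). The order per kb depends on the annotated exonic length, which was 12109 bases for ADSL in these libraries. In CPM the means in parental 231+siNT were 46.1 for ADSL, 44.9 for PFAS and 38.3 for PPAT. The order given here is that of parental 231+siNT only. In untreated parental 231, counted as single reads, TYMS (164 CPM per kb) was above TK1 (94.5), and GUK1 and NME2 were at 16.9 and 3.00.

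The letters CACGTG, the E-box form that Myc-Max dimers are known to prefer, were searched in the windows from 250 bases before to 50 after each start site in the RefSeq table (GRCh38.p14). The hexamer reads the same on both strands. It was present in 8 of the 32 genes that had a window (25.0%), compared with 8.77% of the 27305 genes in the table and 12.5% of the 10293 genes that had a window and were above 1 CPM in the siRNA-treated 231:TKO libraries. ADSL, IMPDH2 and RRM2B had no window. PPAT and PAICS lie head to head on chromosome 4, PPAT at chr4:56393362-56435615 on the minus strand and PAICS at chr4:56435741-56464578 on the plus strand in the count tables (GRCh38), with 125 bases between them. The 125 bases held no CACGTG (GC content 76.0%), and a single hexamer in the first part of PAICS fell in the windows of both genes. The sites below are 1 for each gene with the hexamer, that of PAICS being shown under PPAT. Each is written 5′ to 3′ on its gene's strand with the hexamer in capitals.
PPAT: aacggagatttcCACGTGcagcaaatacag
DCTPP1: ggagggttcctcCACGTGgtcgggaagcgg
DHODH: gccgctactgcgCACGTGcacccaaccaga
NME1: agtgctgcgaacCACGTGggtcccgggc
ATIC: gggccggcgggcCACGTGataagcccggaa
DCK: cgccccggccttCACGTGacctggcgtgcg
AK4: ggtcgcagggagCACGTGggccaggcaggc
The PPAT sequence lies at chr4:56435780-56435809 with its hexamer 182 bases before the RefSeq start of PPAT and 40 bases after that of PAICS. The hexamer of DCTPP1 (chr16:30429792-30429821) lies 9 bases before the start, that of DHODH (chr16:72008573-72008602) 159 bases before it, and that of NME1 (chr17:51153581-51153608) 34 bases after it. Those of ATIC (chr2:215312001-215312030), DCK (chr4:70993521-70993550) and AK4 (chr1:65147447-65147476) lie 46, 116 and 93 bases before the start of their gene, and ATIC and AK4 each hold a second one. A match of letters does not show binding.

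In 231:TKO cells most of the pathway fell under siMyc. By the quasi-likelihood test of edgeR, with p adjusted by Benjamini-Hochberg over 22450 genes, 27 of the 35 genes fell and 1 rose in 231:TKO+siMyc compared with 231:TKO+siNT. Of all genes tested, 13.9% fell and 13.3% rose. In 1 fit with the parental 231 libraries, whose spread is larger, 18 of the 35 fell and 0 rose, compared with 4.38% and 5.28% of all genes. The median log2 fold change of the 35 genes was -0.39, that of all genes 0.01. In 25 of the 35 genes every siMyc library was below every siNT library, an arrangement found in 17.3% of all genes, and ADSS1 was the 1 gene with the reverse arrangement (21.3% of all genes). The median log2 deviation of the 35 genes from the siNT mean was between -0.02 and 0.02 in the 3 siNT libraries and between -0.35 and -0.33 in the 3 siMyc libraries, so the libraries of a group hardly differed.

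All 6 genes of IMP synthesis fell, with a median log2 fold change of -0.71. PAICS, which carries out the carboxylation of the ring and the addition of aspartate, was at 388, 349 and 383 CPM in 231:TKO+siNT and at 186, 193 and 214 CPM in 231:TKO+siMyc. Every siMyc value lay far below the lowest siNT value, a log2 fold change of -0.95 ± 0.06 (SE, edgeR adjusted p = 1.3e-10, n = 3 and 3), the largest fall among the 35 genes. PPAT, the amidotransferase of the first committed step, fell from 48.8, 42.8 and 48.4 CPM to 26.1, 26.7 and 28.1 CPM (log2 fold change -0.82 ± 0.07, edgeR adjusted p = 8.06e-09). Its head-to-head neighbour PAICS thus fell by a similar amount, and the median change of 39 genes within 10 Mb of the pair was -0.02. PFAS (-0.79 ± 0.06) and GART (-0.63 ± 0.05), which act between these enzymes, fell by more than ATIC (-0.42 ± 0.05), the enzyme of the last 2 steps, and ADSL (-0.28 ± 0.06), which also serves the AMP branch.

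In the branches from IMP, all 3 genes of the GMP side fell, and on the AMP side ADSS2 did not pass the test. IMPDH2, the IMP dehydrogenase that directs IMP to GMP, was at 163, 178 and 170.0 CPM in 231:TKO+siNT and at 97.3, 99.5 and 97.7 CPM in 231:TKO+siMyc. The groups were far apart, with a log2 fold change of -0.82 ± 0.05 (edgeR adjusted p = 1.73e-10). GMPS, which makes GMP, fell by 0.31 ± 0.06 on the log2 scale and IMPDH1 fell by 0.23 ± 0.06. ADSS2, the adenylosuccinate synthase on the way to AMP, was at 87.8, 85.3 and 90.4 CPM with siNT and at 88.4, 90.4 and 98.4 CPM with siMyc, groups that overlapped (log2 fold change 0.05 ± 0.05, edgeR adjusted p = 0.616). ADSS1 was the 1 gene that rose (0.84 ± 0.31, edgeR adjusted p = 0.0481), from between 7 and 18 counts per library to between 26 and 29, and DESeq2 did not call it.

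Pyrimidine synthesis showed the same direction in 4 of its 5 genes. CAD, which carries the first 3 activities of the pathway on 1 protein, was at 113, 118 and 113 CPM with siNT and at 89.2, 85.5 and 77.0 CPM with siMyc (log2 fold change -0.48 ± 0.06, edgeR adjusted p = 1.95e-06), without overlap. DHODH was at 9.22, 10.5 and 8.99 CPM and at 4.76, 5.73 and 4.87 CPM, a fall of close to the size of PAICS at a low level (-0.93 ± 0.10, edgeR adjusted p = 5.49e-07). UMPS, which completes UMP, fell by 0.30 ± 0.06 on the log2 scale. CTPS1, a CTP synthase known for its role in proliferating lymphocytes, was at 96.3, 92.2 and 96.7 CPM with siNT and at 51.7, 51.3 and 50.9 CPM with siMyc, with little spread inside either group (-0.92 ± 0.05, edgeR adjusted p = 1.04e-10). Its isoenzyme CTPS2 was at 20.3, 18.6 and 17.9 CPM and at 19.6, 21.2 and 23.4 CPM, groups that overlapped (0.15 ± 0.08, edgeR adjusted p = 0.168).

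Genes of dNTP supply fell in 5 of 6 cases. RRM2, the cell-cycle-bound small subunit of ribonucleotide reductase, was at 214, 189 and 211 CPM with siNT and at 119, 120.2 and 129.5 CPM with siMyc (-0.77 ± 0.06, edgeR adjusted p = 2.17e-09), whereas RRM2B, the p53-inducible small subunit, was at 55.4, 54.1 and 55.6 CPM and at 52.8, 56.0 and 62.8 CPM (0.03 ± 0.06, edgeR adjusted p = 0.813). The RRM2 groups were separate and the RRM2B groups overlapped. TYMS, which makes dTMP, was at 227, 217 and 224 CPM and at 150.5, 157 and 159 CPM, again without overlap (-0.55 ± 0.05, edgeR adjusted p = 2.45e-08). DCTPP1, a pyrophosphatase that removes dCTP and its modified forms, fell by 0.89 ± 0.08, and the large subunit RRM1 (-0.39 ± 0.05) and the dUTPase DUT (-0.41 ± 0.06) fell by less.

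Both genes of base salvage, both PRPP synthetases and 2 of 3 nucleoside kinases fell. HPRT1, which returns hypoxanthine and guanine to nucleotides, was at 50.9, 51.7 and 53.1 CPM with siNT and at 31.9, 36.8 and 40.4 CPM with siMyc (-0.54 ± 0.07, edgeR adjusted p = 4.07e-06), and APRT, which does so for adenine, fell by 0.40 ± 0.08. UCK2, the uridine-cytidine kinase, was at 88.5, 84.6 and 88.4 CPM and at 46.2, 47.0 and 48.7 CPM, the siMyc libraries all far below the siNT libraries (-0.91 ± 0.05, edgeR adjusted p = 1.3e-10). TK1 was at 138, 149 and 134 CPM and at 133, 137 and 112 CPM, groups that overlapped (-0.17 ± 0.07, edgeR adjusted p = 0.0608). PRPS1 fell by 0.36 ± 0.05 and PRPS2 by 0.16 ± 0.06. The nucleoside kinase DCK fell by 0.26 ± 0.07 (edgeR adjusted p = 0.00413). The siNT and siMyc groups of PRPS2 and DCK overlapped although both passed the test.

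Among the 6 nucleotide kinases 3 fell. NME1, a nucleoside diphosphate kinase, was at 109.5, 111 and 109 CPM with siNT and at 59.9, 59.7 and 57.3 CPM with siMyc, nearly without spread inside the groups (-0.92 ± 0.05, edgeR adjusted p = 7.07e-11). Its neighbour and isoenzyme NME2 was at 114, 111 and 109 CPM and at 93.5, 97.3 and 90.0 CPM, a smaller fall (-0.28 ± 0.05, edgeR adjusted p = 0.000299). DTYMK, the thymidylate kinase, fell by 0.32 ± 0.07. The groups of CMPK1 (UMP-CMP kinase, -0.06 ± 0.07), GUK1 (guanylate kinase, 0.13 ± 0.06) and AK4 (a mitochondrial adenylate kinase, -0.09 ± 0.05) overlapped.

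**Figure D1:**
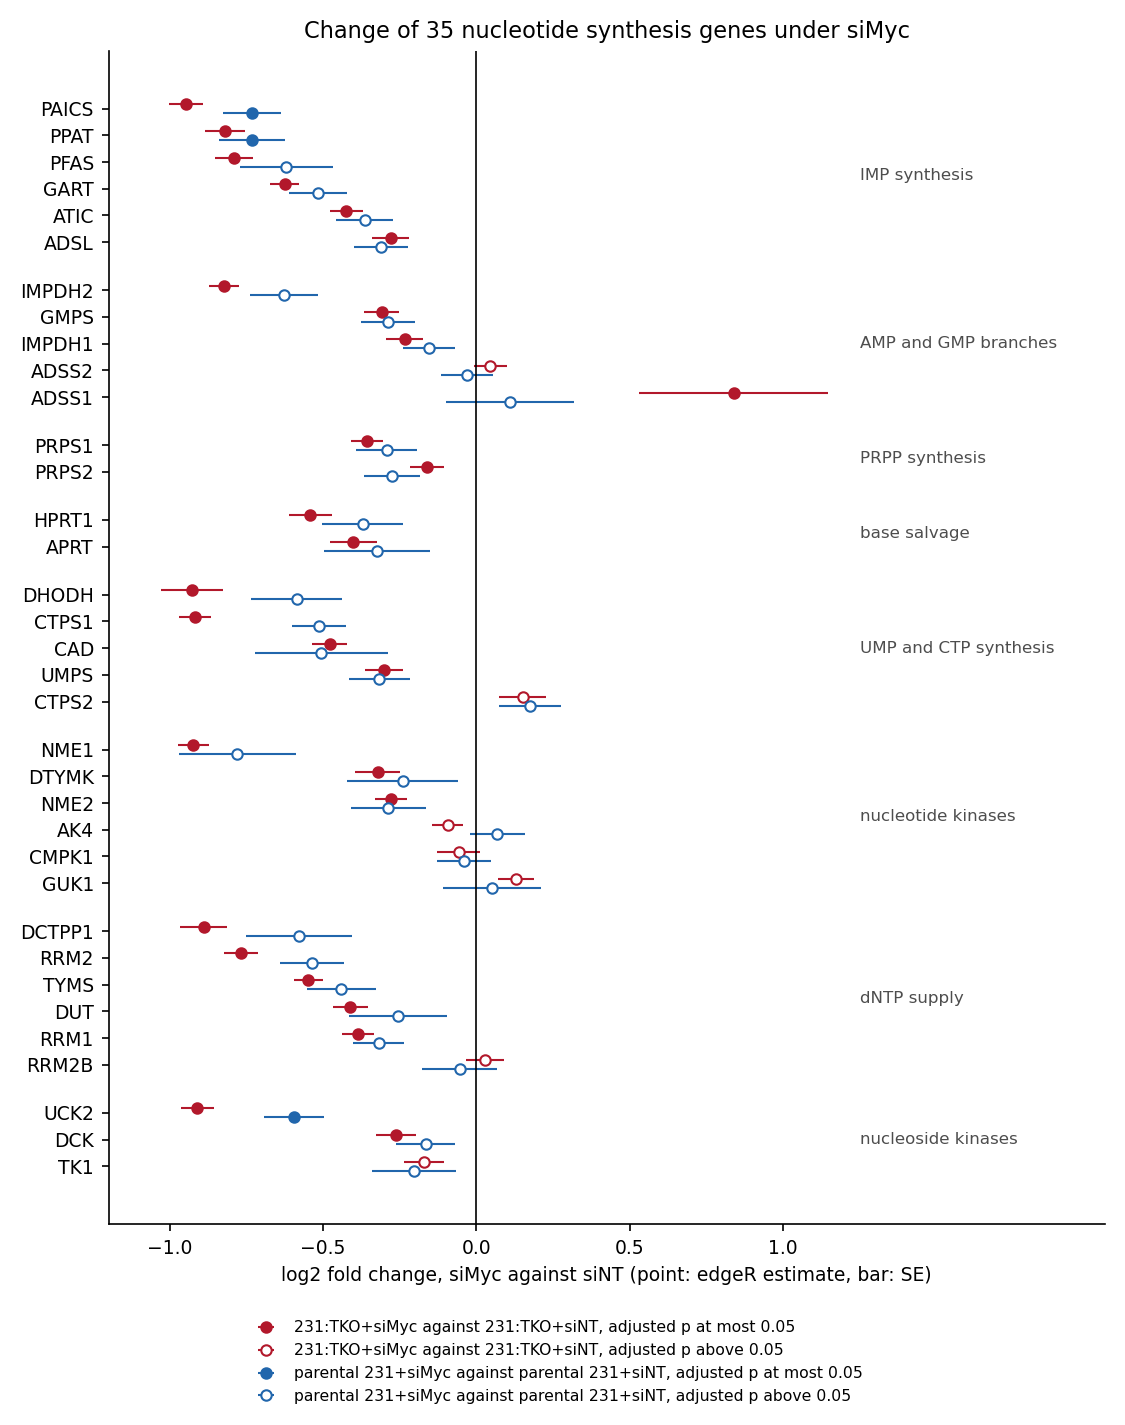
Log2 fold change of each of the 35 genes under siMyc on the x axis, grouped by enzyme role, in 231:TKO (red) and parental 231 (blue). Points are edgeR estimates, bars are SE, filled points have an adjusted p of at most 0.05, and nearly all points of both colours lie left of 0, with CTPS2, ADSS1 and GUK1 right of it in both.

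In parental 231 cells most of the 35 genes were also lower with siMyc, but few of the changes passed the test. With edgeR over 23728 genes, PPAT, PAICS and UCK2 fell in parental 231+siMyc compared with parental 231+siNT, 3 of the 35 genes, and none rose, whereas 0.354% of all genes fell and 0.24% rose. At an unadjusted p under 0.05, 22 of the 35 genes were lower and 0 higher (7.66% and 6.93% of all genes), and DESeq2 called 15 lower and 0 higher (4.34% and 3.3%). The median log2 fold change of the 35 genes was -0.32, that of all genes 0.00. In 23 of the 35 genes every siMyc library was below every siNT library, compared with 11.1% of all genes, and CTPS2 was the 1 gene with the reverse arrangement (10.2%). With a factor for the pair of libraries that deviated together, 28 genes fell and 1 rose (13.1% and 13.7% of all genes), and 27 fell and 0 rose with the pair left out (10.9% and 9.94% of all genes). All 27 genes that fell in 231:TKO were among the 28.

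PPAT was at 35.3, 39.9 and 39.8 CPM in parental 231+siNT and at 24.2, 24.2 and 20.7 CPM in parental 231+siMyc (-0.73 ± 0.11, edgeR adjusted p = 0.0421). PAICS was at 348, 314 and 312 CPM and at 191, 189.8 and 206 CPM (-0.73 ± 0.09, edgeR adjusted p = 0.0378). UCK2 was at 70.4, 67.4 and 72.4 CPM and at 44.4, 44.1 and 50.5 CPM (-0.60 ± 0.10, edgeR adjusted p = 0.0491). In none of these 3 genes did the groups overlap. The other genes with per-library values above did not pass: IMPDH2 was at 236, 208 and 214 CPM and at 133, 132 and 159 CPM (-0.63 ± 0.11, edgeR adjusted p = 0.0563).
CTPS1 was at 70.1, 74.7 and 69.6 CPM and at 49.7, 51.4 and 48.9 CPM (-0.51 ± 0.09, edgeR adjusted p = 0.0536). The groups of both genes were separate. CAD was at 69.4, 114 and 122 CPM and at 78.1, 79.6 and 56.6 CPM (-0.51 ± 0.22, edgeR adjusted p = 0.335), and its groups overlapped, the low siNT value being that of replicate 1, a library of the pair that deviated together.
RRM2 was at 179.6, 163 and 179 CPM and at 109, 118 and 132 CPM (-0.54 ± 0.10, edgeR adjusted p = 0.0735). TYMS was at 219, 194 and 206 CPM and at 143, 141 and 173 CPM (-0.44 ± 0.11, edgeR adjusted p = 0.121), and HPRT1 at 68.1, 57.9 and 56.5 CPM and at 43.3, 42.9 and 54.8 CPM (-0.37 ± 0.13, edgeR adjusted p = 0.246). In these 3 genes the highest siMyc value was that of replicate 3, and the groups did not overlap. TK1 was at 224, 179 and 196 CPM and at 158, 158 and 205 CPM, groups that overlapped (-0.20 ± 0.14, edgeR adjusted p = 0.577).

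**Figure D2:**
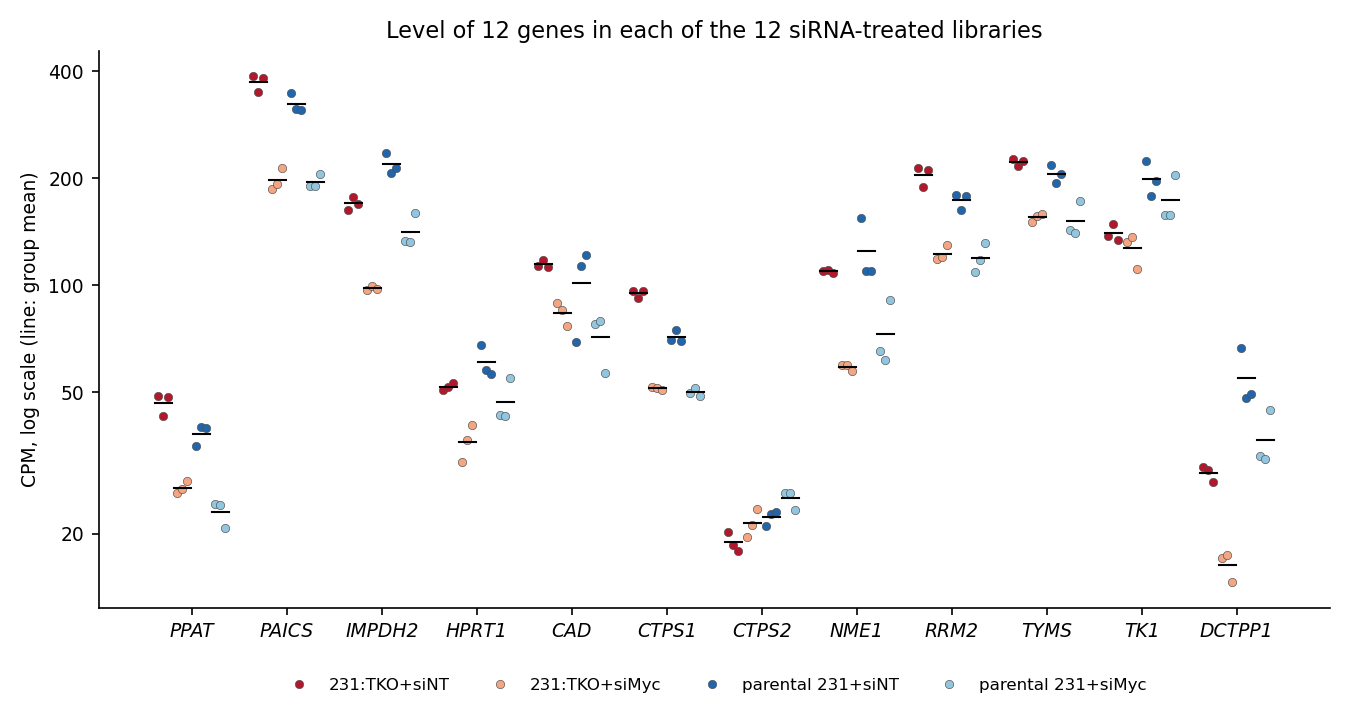
Level of 12 of the genes in each siRNA-treated library, in CPM on a log scale, with 3 points per group and a line at the group mean. PAICS ranges from 186 to 388 CPM with the siMyc points below the siNT points in both populations, the TK1 points of siNT and siMyc overlap, and the DCTPP1 points of 231:TKO lie below those of parental 231.

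Across the 35 genes the change under siMyc in 231:TKO and in parental 231, which share no library, had a Pearson r of 0.92 and a Spearman rho of 0.95. The genes are not independent of each other, and this is a description of 35 points. The change was negative in both populations for 29 genes, positive in both for 3 and of opposite sign for 3, and for 23 of the 29 it was larger in 231:TKO. The difference between the responses was tested as an interaction in 1 fit of the 12 siRNA-treated libraries. This difference was negative for 22 of the 35 genes and for 11490 of all 25812 genes. MYC itself was at lower CPM in 231:TKO+siMyc than in parental 231+siMyc, and its part in the difference was not tested. No gene of 25812 passed with edgeR (0.0%), 1039 had an unadjusted p under 0.05, and among the 35 genes 2 did, CTPS1 and UCK2. CTPS1 had a log2 difference between the responses of -0.37 ± 0.11 (edgeR unadjusted p = 0.0028), a larger fall in 231:TKO. DESeq2 called CTPS1 and none of the other 34 genes (log2 difference -0.41 ± 0.08, adjusted p = 0.00654, with 0.0232% of all genes called lower), as did edgeR with the factor for the pair (adjusted p = 0.00285, with 0.174% of all genes called lower) and with the pair left out (adjusted p = 0.00885, 0.152%). UCK2 had a difference of -0.29 ± 0.12 (edgeR unadjusted p = 0.0243) and was not called in any of these. For PPAT the difference was -0.06 ± 0.13 and for CAD 0.06 ± 0.25, and with SEs of this size a difference like that of CTPS1 could go undetected.

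The medians of the routes and of the bases lay close together, with a wide spread among genes. In 231:TKO, 13 of 16 de novo genes fell (median log2 fold change -0.45) and 4 of 5 salvage genes (-0.40). Of the purine genes 11 of 15 fell (median -0.40) and of the pyrimidine genes 9 of 12 (-0.44). In parental 231 the medians were -0.43 for de novo and -0.32 for salvage, and -0.32 for purine and -0.38 for pyrimidine genes. With the pair of deviating libraries left out they were -0.45, -0.41, -0.40 and -0.39 in the same order. Within the de novo route the purine genes had a median of -0.42 and the pyrimidine genes of -0.48 in 231:TKO, and -0.36 and -0.51 in parental 231. Within each of these sets single genes ranged from near 0 to the steepest falls, as UCK2 (-0.91) and TK1 (-0.17) show among the salvage genes in 231:TKO.

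Isoenzymes of 1 step, by contrast, mostly changed by unlike amounts under siMyc. The log2 ratio of CTPS1 to CTPS2, in CPM per kb, was 1.23, 1.30 and 1.42 in 231:TKO+siNT and 0.38, 0.26 and 0.11 in 231:TKO+siMyc, a difference of -1.07 ± 0.10 (SE, n = 3 and 3). In parental 231 the ratio was 0.72, 0.70 and 0.58 with siNT and -0.08, -0.03 and 0.06 with siMyc, a difference of -0.69 ± 0.06. The 3 ratios of a group never overlapped those of the other siRNA, and after siMyc the CTPS genes were at nearly equal levels per kb in parental 231. That near equality depends on the annotated exonic lengths, 11164 bases for CTPS1 and 5531 for CTPS2. The ratio also differed between kinds of library, at 1.90 and 1.94 in untreated parental 231, counted as single reads. In CPM, parental 231+siMyc lay between 48.9 and 51.4 for CTPS1 and between 23.3 and 26.1 for CTPS2. With 3 libraries against 3 an exact two-sided permutation test cannot go below 0.10, and none is given. IMPDH2 to IMPDH1 moved from 0.65 ± 0.04 (SD, n = 3) to 0.06 ± 0.11 in 231:TKO and from 0.89 ± 0.07 to 0.41 ± 0.12 in parental 231, without overlap in either. RRM2 to RRM2B moved from 1.13 ± 0.08 to 0.34 ± 0.06 in 231:TKO without overlap, and from 1.28 ± 0.17 to 0.81 ± 0.33 in parental 231, where the groups overlapped. The overlap came from siMyc replicate 3 at 1.17, a library of the pair that deviated together, beside siMyc ratios of 0.53 and 0.72 and a lowest siNT ratio of 1.12. NME1 to NME2 moved from -0.47 ± 0.03 to -1.12 ± 0.03 and from -0.56 ± 0.19 to -1.04 ± 0.11, without overlap. PRPS1 to PRPS2 had a difference of -0.19 ± 0.07 (SE) in 231:TKO, without overlap, and of -0.02 ± 0.05 in parental 231, where the groups overlapped. ADSS2 to ADSS1 is not read here, since ADSS1 has few counts.

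**Figure D3:**
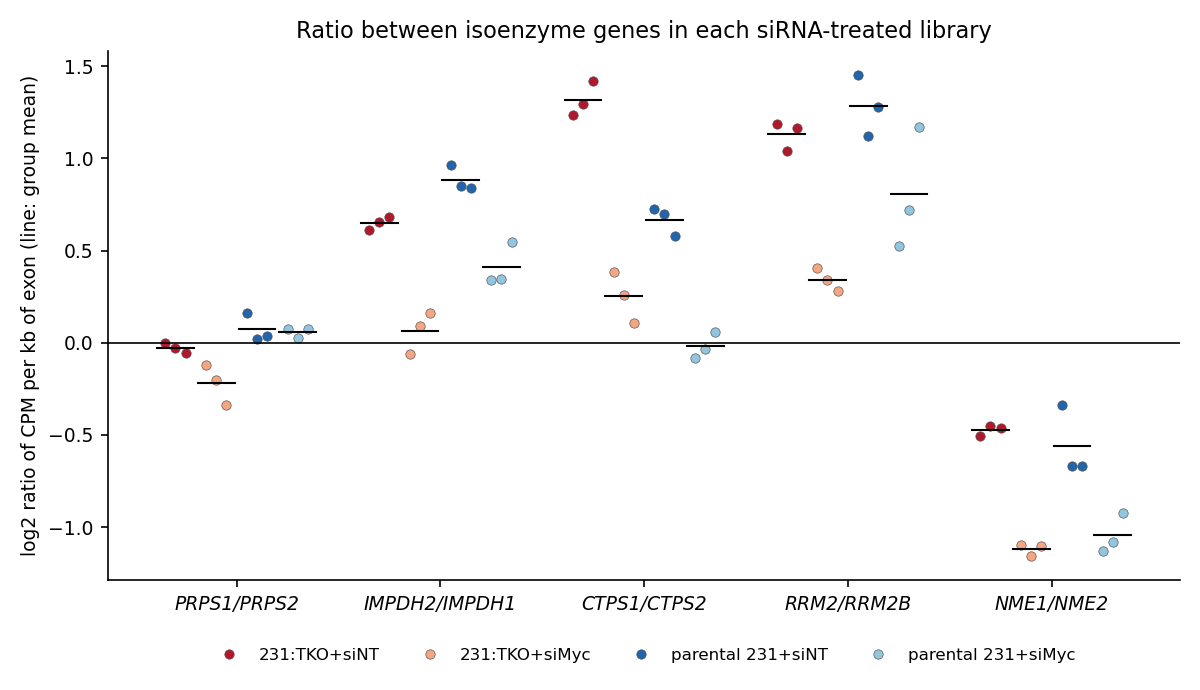
Log2 ratio of CPM per kb of exon between isoenzyme genes in each siRNA-treated library, with 3 points per group and a line at the group mean. CTPS1/CTPS2 drops from between 1.23 and 1.42 to between 0.11 and 0.38 under siMyc in 231:TKO, while PRPS1/PRPS2 lies between -0.34 and 0.16 in all groups.

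Genes with and without the hexamer in their window both fell in 231:TKO. Of the 8 genes with CACGTG 7 fell, with a median log2 fold change of -0.85, and of the 24 genes with a window and without it 18 fell, with a median of -0.34. AK4, with 2 hexamers, had a change of -0.09, and CTPS1, with none in its window, one of -0.92. In parental 231 the medians were -0.58 and -0.29. PPAT and PAICS share their hexamer, so their windows are not independent of each other.

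Related gene lists moved unevenly in 231:TKO under siMyc. Of 16 DNA replication genes 15 fell (median log2 fold change -0.37; CDC45, a helicase subunit, -0.57 ± 0.06), and all 10 G2/M genes fell (median -0.34; MKI67, a proliferation marker, -0.42 ± 0.05). Their part in the change of the nucleotide genes was not tested. Of 19 other kinases and salvage genes tested, 4 fell, among them the purine nucleoside phosphorylase PNP (-0.48 ± 0.05), and 2 rose, among them the mitochondrial thymidine kinase TK2 (0.63 ± 0.06). Of 25 genes of nucleotide breakdown and pool cleaning 7 fell and 7 rose, and the 3 largest changes that passed were rises of TYMP (0.56 ± 0.09), XDH (0.44 ± 0.16) and CDA (0.39 ± 0.06), which code for enzymes of pyrimidine and purine breakdown. In the pentose phosphate pathway, which supplies the ribose of PRPP, 2 of 9 genes fell and 2 rose, with RPIA, the ribose phosphate isomerase, at -0.59 ± 0.06. Of 5 nucleoside transporters 2 rose and 1 fell (SLC29A1, -0.20 ± 0.05). In parental 231, 13 of the 16 DNA replication genes and 8 of the 10 G2/M genes had an unadjusted p under 0.05 and 0 passed edgeR's adjustment, with medians of -0.34 and -0.36, and of the other lists 1 gene passed, AK5 (0.63 ± 0.09).

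Without siRNA, 231:TKO and parental 231 differed in 3 of the 35 genes. With edgeR over 19965 genes, PAICS, PPAT and NME2 rose in 231:TKO (5.43% of all genes rose) and none fell (4.18% of all genes). At an unadjusted p under 0.05, 6 genes were higher and 3 lower (13.6% and 12.3% of all genes), and DESeq2 called 3 higher and 0 lower (8.42% and 6.58%), shares near those of all genes. The median log2 fold change of the 35 genes was -0.02, that of all genes 0.00. PAICS was at 389.6 and 394 CPM in parental 231 and at 566 and 562 CPM in 231:TKO (0.53 ± 0.06, edgeR adjusted p = 0.0114, n = 2 and 2), and PPAT at 47.0 and 45.6 CPM and at 65.5 and 61.8 CPM (0.46 ± 0.07, edgeR adjusted p = 0.0247). The groups did not overlap in either gene, and 37 genes within 10 Mb of the pair had a median log2 fold change of 0.56. The calls depended on single libraries. Without either parental 231 replicate 0 of the 35 genes passed (0.0% of all genes), without 231:TKO replicate 1, 10 were higher and 5 lower (18.5% and 19.0% of all genes), and without replicate 2, 9 were higher and 15 lower (18.1% and 17.9%).

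Of the related lists, 1 of 16 DNA replication genes rose without siRNA (MCM6, 0.61 ± 0.12), and of the 10 G2/M genes 2 rose and 1 fell (CCNA2, 0.62 ± 0.06; AURKB, -0.49 ± 0.06). The largest change that passed in these lists was that of AK5, an adenylate kinase, which fell in 231:TKO (log2 fold change -4.60 ± 0.26, edgeR adjusted p = 0.00393). Of the pentose phosphate genes, RBKS (-1.72 ± 0.16) and PGLS (-0.54 ± 0.09) fell, and among breakdown genes ADA, the adenosine deaminase, fell (-1.21 ± 0.21) and DCTD, the dCMP deaminase, rose (0.56 ± 0.06).

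Several other genes differed between the 231:TKO replicates together with their neighbours. CAD was at 229 and 225 CPM in parental 231 and at 142 and 262 CPM in 231:TKO, that is at log2 ratios of -0.68 and 0.21 to parental 231, and the medians of 98 neighbouring genes were -0.52 and 0.05. RRM2, on the same arm of chromosome 2, was at 557 and 549 CPM and at 339.9 and 599 CPM, with ratios of -0.70 and 0.12 beside neighbour medians of -0.62 and 0.04. ADSS2 had ratios of -0.49 and 0.06 beside -0.37 and 0.15, and IMPDH1 ratios of -0.19 and 0.68 beside 0.18 and 0.50. These were the 4 genes whose ratios differed by more than 0.5 between the replicates. Across the 35 genes the difference between the replicates and that of the neighbours had a Pearson r of 0.86 and a Spearman rho of 0.58, as a description of 35 points of which some share neighbours. The remaining genes of the fixed set differed little: IMPDH2 was at 324 and 329 CPM and at 291 and 337 CPM, CTPS1 at 203 and 204 CPM and at 164 and 193 CPM, and TYMS at 395 and 397 CPM and at 374 and 415 CPM. TK1 was at 174 and 174 CPM and at 149 and 162 CPM, and HPRT1 at 109 and 109 CPM and at 98.9 and 103 CPM. None of these 5 passed edgeR's test. In CTPS1, TK1 and HPRT1 both 231:TKO libraries were below both parental 231 libraries, an arrangement found in 28.6% of all genes.

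Among the 3 genes that passed, NME2 had the largest change (0.99 ± 0.13, edgeR adjusted p = 0.0165), from 7.09 and 7.87 CPM to 14.5 and 15.3 CPM, and it is uncertain. ADSS1, with few counts, had a log2 fold change of -1.61 ± 0.39 and did not pass (edgeR adjusted p = 0.0685). In the siRNA-treated libraries, counted as read pairs, NME2 lay between 90.0 and 143 CPM, whereas the single-read libraries held between 136 and 154 counts in parental 231 and between 427 and 436 in 231:TKO. NME1 and NME2 are closely similar genes beside each other, and an annotated read-through gene, NME1-NME2, overlaps both, so reads of these genes can be split or lost in counting. NME1 itself was at 78.3 and 75.1 CPM and at 86.2 and 87.7 CPM (0.18 ± 0.06, edgeR adjusted p = 0.155).

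**Figure D4:**
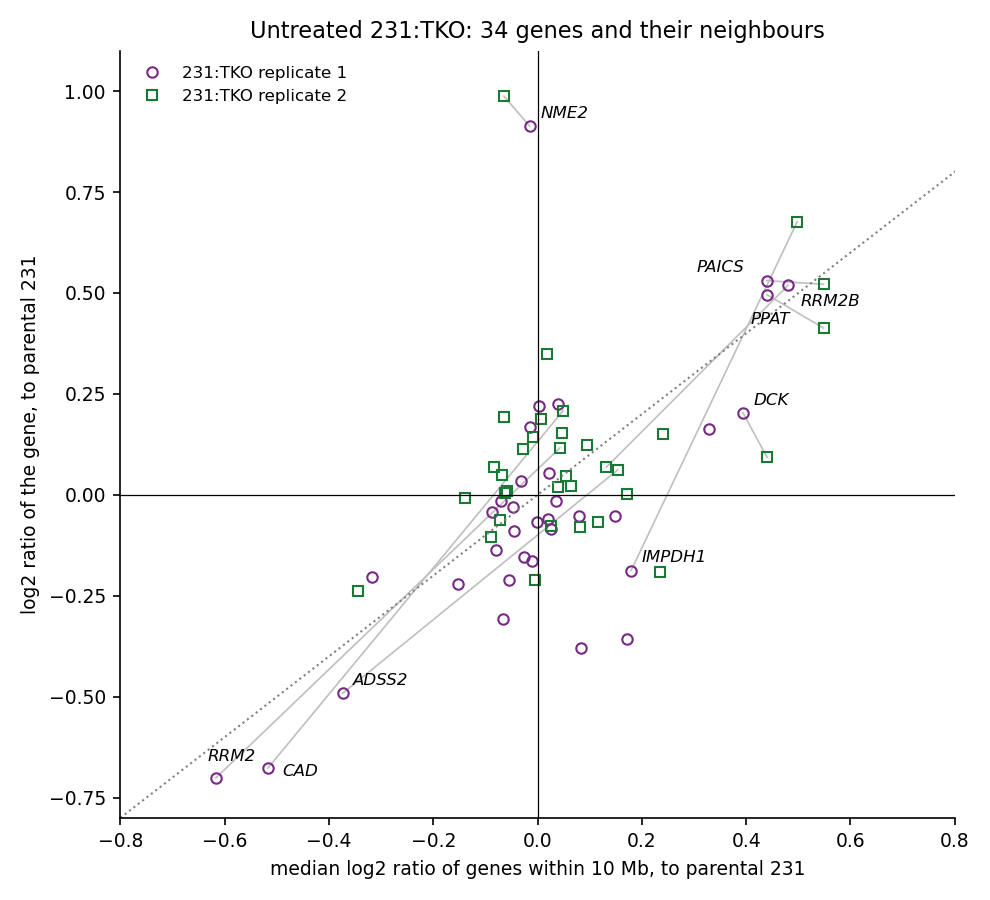
Log2 ratio to the parental 231 mean of 34 of the 35 genes (y axis, ADSS1 left out for its low counts) and median log2 ratio of the genes within 10 Mb (x axis), in the untreated 231:TKO replicates 1 (circles) and 2 (squares), with grey lines joining the replicates of 9 named genes and a dotted line of equality. CAD and RRM2 lie below -0.5 on both axes in replicate 1 and near 0 on the x axis in replicate 2, PPAT and PAICS lie between 0.41 and 0.56 in both replicates, and NME2 stands apart from its neighbours.

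With siNT, 7 of the 35 genes were higher and 8 lower in 231:TKO than in parental 231 by edgeR's test over 23310 genes, against 16.1% and 20.7% of all genes, and with siMyc 3 were higher and 9 lower over 23561 genes (18.8% and 21.7%). Both comparisons set libraries of separate sequencing requests against each other. The medians of the 35 genes were -0.02 and -0.06, those of all genes -0.03 and -0.01. PFAS and RRM2B were higher in both comparisons, and 7 genes, ADSL, IMPDH2, ADSS2, DTYMK, TK1, GUK1 and DCTPP1, were lower in both. With the pair of deviating libraries left out, 5 were higher in both, PRPS2, DCK and AK4 besides those named, and 8 were lower in both, CTPS2 besides those named. The share of all genes that passed in both comparisons was not counted. Both comparisons set the same sequencing requests and Ensembl releases against each other, so these counts are not a result about the 35 genes in particular. The largest difference was that of DCTPP1, at 30.8, 30.3 and 28.0 CPM in 231:TKO+siNT and at 66.7, 48.3 and 49.6 CPM in parental 231+siNT (-0.88 ± 0.13, edgeR adjusted p = 0.000285). With siMyc it was at 17.1, 17.4 and 14.6 CPM and at 33.1, 32.5 and 44.6 CPM (-1.18 ± 0.13, edgeR adjusted p = 1.21e-05). The populations did not overlap under either siRNA, while in untreated cells DCTPP1 was at 30.6 and 35.2 CPM in 231:TKO and at 33.5 and 34.6 CPM in parental 231.

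DTYMK was at 64.0, 72.5 and 60.1 CPM in 231:TKO+siNT and at 132, 96.5 and 95.4 CPM in parental 231+siNT (-0.71 ± 0.13, edgeR adjusted p = 0.00147), without overlap. It was at 56.6, 56.4 and 47.3 CPM and at 81.4, 78.7 and 114 CPM with siMyc (-0.79 ± 0.14, edgeR adjusted p = 0.000481), again without overlap, and the log2 difference was 0.04 ± 0.09 without siRNA. TK1 had differences of -0.50 ± 0.10 and -0.46 ± 0.12 under siNT and siMyc, beside medians of its neighbours of -0.23 and -0.21. ADSS2, at 126, 126 and 119 CPM in parental 231+siNT, had differences of -0.49 ± 0.08 and -0.40 ± 0.09, beside neighbour medians of -0.40 and -0.38. GUK1, at 182, 197 and 169.6 CPM in 231:TKO+siNT and 306, 234 and 226 CPM in parental 231+siNT, had a difference of -0.48 ± 0.12. In DCTPP1, DTYMK and GUK1 replicate 1 of parental 231+siNT was the highest library by far, and without the pair of libraries the siNT differences were -0.70, -0.53 and -0.31, all past edgeR's threshold. Without the pair, 12 genes were higher and 9 lower with siNT (22.4% and 25.8% of all genes), and 5 were higher and 12 lower with siMyc (23.1% and 26.6%).
Genes with shorter exonic length tended to be lower in 231:TKO: across the 35 genes, length and the siNT difference had a Spearman rho of 0.47, and length and the deviation of replicate 1 of parental 231+siNT one of -0.61. The part of length in these differences was not tested.
CTPS1 was higher in 231:TKO+siNT than in parental 231+siNT (0.42 ± 0.08, edgeR adjusted p = 0.00246), and after siMyc the difference was 0.02 ± 0.09 (edgeR adjusted p = 0.85). UCK2 was higher with siNT as well (0.32 ± 0.08, edgeR adjusted p = 0.0108), with a difference of 0.02 ± 0.10 after siMyc. RRM2B, by contrast, was higher under both siRNAs, at 55.4, 54.1 and 55.6 CPM against 38.6, 44.1 and 43.4 CPM with siNT and at 52.8, 56.0 and 62.8 CPM against 44.7, 42.2 and 34.5 CPM with siMyc (0.39 ± 0.09 and 0.49 ± 0.12, edgeR adjusted p = 0.00539 and 0.00436). The RRM2B libraries of the populations did not overlap under either siRNA. IMPDH2 was lower under both, with differences of -0.36 ± 0.09 with siNT and -0.54 ± 0.10 with siMyc.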

How the data were processed

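The authors used STAR for alignment to GRCh38, counted reads on genes with featureCounts 1.6.3 on the reverse strand by the largest overlap, and deposited the raw counts of the 16 libraries without normalization. Per the file headers, untreated libraries were counted as single reads, siRNA-treated libraries as read pairs, and siRNA-treated parental 231 libraries in a later Ensembl release than all others. The 60719 identifiers include 60620 shared by both releases, and 33 of the 35 genes have the same exonic length in both (not ADSL and CMPK1).

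Groups came from the sample labels. The study calls the replicates biological. The labels name no separate cultures, so p-values measure the spread between these samples, which may be technical. Each comparison was fitted on its own libraries with edgeR 4.0.16 in R 4.3.3 (TMM scaling, robust quasi-likelihood test, no covariate) on genes with more than 5 counts summed over them. P-values were adjusted by Benjamini-Hochberg over every gene in the fit, with a threshold of 0.05. DESeq2 1.42.0 replaces this test in 1 alternative. The steps were tested on simulated data with the means and totals of these libraries, and the outcome is not reported here. The simulated counts were drawn independently for each gene and library. They therefore hold neither the pair of libraries that deviated together nor shifts shared by neighbouring genes. The 35 genes and the other lists were chosen with earlier results of these data known. Per-library values are given for a fixed set (PPAT, PAICS, IMPDH2, CAD, CTPS1, RRM2, TYMS, TK1 and HPRT1), for isoenzyme pairs, and in each comparison for up to 5 genes with the largest changes among those past the threshold without overlap. Up to 3 genes of each other list are named by the same order, and some of these are not reported here. Errors cover the spread between libraries only.

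Neighbours are genes within 10 Mb of a gene with a mean above 1 CPM. Alternatives were DESeq2, its size factors, other filters on low counts, a threshold of 0.01, a block for the replicate number, 1 fit of the 12 siRNA-treated libraries, genes of equal length in both releases, and each replicate left out. The factor for the pair of parental 231 libraries, and the fits without that pair, were chosen after seeing the data. Promoter windows are from RefSeq (GRCh38.p14), and all but 3 of the 35 genes matched by symbol.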

Additional observations from a re-analysis of the deposited data

Results flagged for a closer look

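For 6 of the genes the libraries of 231:TKO and parental 231 were separate without siRNA and separate in the opposite direction under an siRNA. With siNT this held for 5 of the 35 genes, compared with 12.8% of all genes, and with siMyc for 3 of 35, compared with 14.2%, so such reversals are about as frequent among all genes. The difference between the contrasts was not tested, and counting used single reads without siRNA and read pairs with it. Against siNT, PFAS changed by -0.22 untreated and 0.44 with siNT, a difference of -0.66 on the log2 scale, and CTPS1 by -0.19 and 0.42, a difference of -0.61. UCK2 changed by -0.13 and 0.32, a difference of -0.45. DUT went the other way, with 0.29 and -0.26, a difference of 0.55, and so did NME2, whose single-read counts are low, with 0.99 and -0.25, a difference of 1.24. Against siMyc, PFAS differed by -0.50 (-0.22 and 0.28), DUT by 0.69 (0.29 and -0.40) and NME1 by 0.50 (0.18 and -0.32). Of these genes, NME2 passed edgeR's test in untreated cells, and PFAS, CTPS1, UCK2 and NME2 passed it with siNT, and PFAS and DUT passed it with siMyc. Without the pair of parental 231 libraries that deviated together, the siNT differences were 0.31 for PFAS, 0.42 for CTPS1, 0.34 for UCK2, -0.083 for DUT and -0.17 for NME2, and the siMyc differences were 0.20 for PFAS, -0.27 for DUT and -0.13 for NME1. Of these, DUT with siNT and NME1 with siMyc did not pass edgeR's test. No group had more than 3 libraries, so no single library was tested as an outlier.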

How the results depend on the processing

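Only genes that passed edgeR's test in a comparison were followed, with 1 result per gene and alternative. Of these results, 729 kept their direction and the threshold, 113 kept their direction and lost the threshold, and 0 changed sign. Genes that gained the threshold under an alternative are outside this tally. In 231:TKO under siMyc, the 28 calls became 18 in 1 fit of the 12 siRNA-treated libraries (0 higher, with medians of -0.36 for all 35 genes, -0.42 for de novo, -0.37 for purine and -0.42 for pyrimidine genes). The rise of ADSS1 was lost with DESeq2 and at an adjusted p of at most 0.01 (0 higher in both). In parental 231 under siMyc the 3 calls became 15 with DESeq2, 7 with no filter, 6 with more than 5 counts in every sample, 19 in 1 fit, 28 lower and 1 higher (29 in all) with the factor for the pair, 27 with the pair left out (median of the purine genes -0.40) and 0 at an adjusted p of at most 0.01. In untreated cells the 3 rises became 0 at an adjusted p of at most 0.01, and 1 gene fell with more than 5 counts in every sample. In the siNT comparison of the populations 12 were higher with the pair left out and 3 at an adjusted p of at most 0.01. With siMyc 1 was higher with no filter, 5 with the pair left out (median -0.017), and 1 was higher and 5 lower, 6 in all, at an adjusted p of at most 0.01. The difference between the responses had 1 call lower with DESeq2, with the factor and with the pair left out (median -0.10). The cause of these shifts was not tested. For several of the settings here and in the next paragraphs, the share of all genes that passed was not counted. Where no share is given above, a count of the 35 genes is not a result about them in particular.

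Replicate numbers did not pair the samples: correlations of same-numbered deviations ran from -0.81 to 0.64. With the replicate block, calls were 2 higher in untreated cells, 2 higher and 28 lower (30 in all) in 231:TKO under siMyc, 0 in parental 231 under siMyc, 5 higher and 7 lower with siNT, 1 higher and 8 lower with siMyc, and 0 for the difference between the responses.

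Leaving out 1 replicate at a time, calls ran from 0 to 24 in untreated cells (0 to 10 higher, 0 to 15 lower), from 26 to 30 in 231:TKO under siMyc (0 to 1 higher, 26 to 29 lower) and from 0 to 3 in parental 231 under siMyc, where the calls were lost without siNT replicate 2 or 3 or siMyc replicate 1 or 2. They ran from 8 to 21 with siNT (2 to 12 higher, 6 to 9 lower; lowest without 231:TKO+siNT replicate 3, 9 without its replicate 1, highest without parental 231+siNT replicate 1), from 7 to 17 with siMyc (1 to 5 higher, 6 to 12 lower; 7 without 231:TKO+siMyc replicate 2 or 3, 8 without replicate 1, 17 without parental 231+siMyc replicate 3), and were 0 throughout for the difference between the responses. The medians of all 35 genes ran from -0.065 to 0.047, -0.38 to -0.35, -0.40 to -0.29, -0.05 to 0.02, -0.079 to -0.017 and -0.11 to -0.030 in these comparisons in turn. In untreated cells the medians ran from -0.12 to 0.018 for de novo, -0.12 to -0.059 for salvage, -0.065 to 0.0042 for purine and -0.12 to 0.079 for pyrimidine genes. In 231:TKO under siMyc they ran from -0.47 to -0.44, -0.48 to -0.33, -0.42 to -0.33 and -0.47 to -0.42, and in parental 231 from -0.46 to -0.35, -0.50 to -0.21, -0.40 to -0.30 and -0.42 to -0.33. Depth limits ADSS1 (6 to 41 counts per library) more than the other genes.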
